A study of Mus musculus with 12 samples.

Results

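Nox4 and 9 genes of antioxidant enzymes were followed across 4 groups of mouse mesenchymal stem cells (MSCs), the stromal cells that can give rise to bone, fat and cartilage. The 10 genes are Nox4, Sod1, Sod2, Sod3, Cat, Gpx1, Hmox1, Nqo1, Txnrd1 and Gclm. They were chosen by symbol from the 55401 genes of the expression table, and each matched a single entry. The MSCs were bought as bone marrow cells of C57BL/6 mice. Control cells were left untreated, and all other cells received TGF-β1 at 5 ng/mL. They received it alone, together with supernatant of monocytic myeloid-derived suppressor cells (TGF-β1/M-MDSC), or together with that of granulocytic ones (TGF-β1/G-MDSC). Each group had 3 mRNA libraries. All supernatant-treated cells also received TGF-β1, so the effect of a supernatant without TGF-β1 was not measured. The suppressor cells were induced in culture from bone marrow cells with GM-CSF and IL-6 and then sorted, and they were not taken from diseased animals. No source used here says whether the 3 libraries of a group came from separate cultures, so p-values measure only the spread between these libraries, which may be technical.

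NADPH oxidases pass electrons from NADPH to oxygen and so make superoxide or hydrogen peroxide. Nox4 is the member that mainly releases hydrogen peroxide, works with the small membrane subunit p22phox (Cyba), is active without the cytosolic subunits that other family members need, and is a known TGF-β1 target in fibroblasts. Superoxide dismutases turn superoxide into hydrogen peroxide, in the cytosol (Sod1), the mitochondria (Sod2) and outside the cell (Sod3). Catalase (Cat) and glutathione peroxidase 1 (Gpx1) remove hydrogen peroxide. Hmox1 degrades heme, Nqo1 reduces quinones, Txnrd1 reduces thioredoxin, and Gclm is the modifier subunit of the enzyme that starts glutathione synthesis. The last 4 are classical targets of the transcription factor NRF2, which binds antioxidant response elements with small MAF proteins.

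The upstream sequences of a few of the genes are shown because 2 of them, Nox4 and Nqo1, had the largest rise and the largest fall among the 10, and 3 hold the core letters of the antioxidant response element close to the start. All are RefSeq sequences of GRCm38.p6, written 5′ to 3′ on the strand of the gene. Promoter windows of 250 bases before to 50 after an annotated start were found for 8 of the 10 genes, with 3 windows for Txnrd1 and none for Sod3 and Hmox1. The core was searched as TGACNNNGC on both strands, and 12.4% of 32851 mouse promoter windows hold it. The 250 bases before the RefSeq start of Nox4 are chr7:87246399-87246648 (plus strand) and those before the RefSeq start of Nqo1 are chr8:107403206-107403455 (minus strand). In neither was there a match to the core. The Nox4 stretch lies in an intron of a longer transcript in the GENCODE annotation, whose start is the gene start in the expression table.
Nox4: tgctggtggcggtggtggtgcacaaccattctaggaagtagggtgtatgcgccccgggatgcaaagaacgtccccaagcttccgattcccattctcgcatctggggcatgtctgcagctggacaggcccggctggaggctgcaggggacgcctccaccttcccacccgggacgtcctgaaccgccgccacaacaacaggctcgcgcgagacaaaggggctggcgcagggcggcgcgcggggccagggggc
Nqo1: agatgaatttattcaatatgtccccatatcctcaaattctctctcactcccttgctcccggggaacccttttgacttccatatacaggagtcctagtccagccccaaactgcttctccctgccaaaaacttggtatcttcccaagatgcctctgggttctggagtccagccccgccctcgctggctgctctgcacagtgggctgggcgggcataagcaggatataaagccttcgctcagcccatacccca

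In 3 genes a stretch of 60 bases around the match is shown, with the match in capitals. Each match lies on the strand opposite to the gene, so the capitals read as the reverse complement of the core. The Gclm stretch is chr3:122245398-122245457 (plus strand), and its match begins 134 bases before the start. The Txnrd1 stretch is chr10:82859089-82859148 (plus strand) in the second of its 3 windows, within an intron of a longer GENCODE transcript, and the match begins 92 bases before that start. The Sod1 stretch is chr16:90220681-90220740 (plus strand), and the match begins 56 bases before the start.
Gclm: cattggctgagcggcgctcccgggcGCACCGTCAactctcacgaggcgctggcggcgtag
Txnrd1: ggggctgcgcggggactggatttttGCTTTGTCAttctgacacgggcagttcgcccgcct
Sod1: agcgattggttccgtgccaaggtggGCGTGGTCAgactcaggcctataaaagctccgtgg

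The AP-1 site TGANTCA, present in 7.81% of all windows, and the SMAD palindrome GTCTAGAC, present in 0.213%, were not found in any window of the 8 genes. These matches describe letters in a short window and no binding was measured.

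The libraries held 73977669 to 84565450 counts, and all 10 genes passed the filter on low values, as did 12016 genes in all. The filter asked for 1 FPKM (fragments scaled by transcript length and library depth) or more in 3 or more libraries. The 8 MSC markers checked were present in every library, with summed FPKM from 500 to 598, although single markers moved in opposite directions. After TGF-β1, 4 of the 7 that were tested rose and 3 fell. Ly6a (Sca-1) fell from a mean of 245 FPKM in control to 16.2 with TGF-β1 and had means of 92.5 with TGF-β1/M-MDSC and 66.9 with TGF-β1/G-MDSC. The hematopoietic and endothelial markers Ptprc, Kit and Pecam1 together stayed at or below 0.233 FPKM. In bulk RNA, fewer cells of a type and less RNA per cell cannot be told apart. Transcripts of kidney tubule, liver and, at lower levels, red blood cells stood apart in the libraries with supernatant. The 14 kidney tubule markers summed to 29.2 to 30.8 FPKM in control, 4.68 to 4.87 with TGF-β1, 17.3 to 89.2 in the TGF-β1/M-MDSC and 51.4 to 65.4 in the TGF-β1/G-MDSC libraries. Most of the control sum was Aqp1, a water channel gene, with means of 29.9 FPKM in control, 4.22 with TGF-β1 and 3.41 and 3.26 in the M-MDSC and G-MDSC supernatant groups. The 13 markers other than Aqp1, which was set apart after its values were seen, summed to 0.36 to 0.612 FPKM in the 6 libraries without supernatant, 14.5 to 85.3 in the TGF-β1/M-MDSC and 48.2 to 62.1 in the TGF-β1/G-MDSC libraries. The 9 liver markers were at 0 without supernatant, at 0.562 to 0.566 FPKM in TGF-β1/M-MDSC replicates 1 and 2, at 67.9 in TGF-β1/M-MDSC replicate 3 and at 73.4 to 79.3 in the TGF-β1/G-MDSC libraries. The 4 markers of red blood cells summed to 0.0414 to 0.24 FPKM in control and at most 0.0559 with TGF-β1. They summed to 1.71 to 3.05 in the TGF-β1/M-MDSC and 1.6 to 2.74 in the TGF-β1/G-MDSC libraries. The part of these kidney, liver and red blood cell transcripts in the results that follow was not tested.

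The first comparison asks which of the genes changed when MSCs were treated with TGF-β1. Nox4 rose and was the only one of the 10 to change by more than 2-fold, whereas 6.74% of all tested genes did so with an unadjusted p under 0.05. Cat also rose, whereas Nqo1, Hmox1 and Sod1 fell. Thus 5 of the 10 genes passed an adjusted p of 0.05 in edgeR, 2 higher and 3 lower, where 34% of all tested genes passed, 16.1% higher and 17.9% lower. The balance over all genes depended on the scale, with 1929 higher and 2153 lower in edgeR and 1477 higher and 2725 lower with limma on log2(FPKM + 1). In FPKM, the TGF-β1 libraries of 2 of the 10 genes lay above all control libraries and those of 7 lay below them. Of all tested genes, 46.7% had no overlap in one direction or the other. The share in each direction is not reported here, and FPKM do not carry the library scaling used in edgeR. The split of 2 and 7 is therefore not read as a result about these genes. The median log2 fold change of the 10 genes was -0.24, beside 0.00 for all tested genes.

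Nox4 (ENSMUSG00000030562, chr7:87246096-87398710, plus strand) had FPKM of 0.705, 0.479 and 0.554 in the 3 control libraries and of 2.10, 2.22 and 2.14 in the 3 libraries with TGF-β1. The groups did not overlap, and the counts behind these values were 380 to 511 in control and 1600 to 1718 with TGF-β1. The log2 fold change was 1.95 (SE 0.123, adjusted p = 5.91e-07), a 3.87-fold rise. Since Nox4 lay below 1 FPKM in every control library, it passed the filter on low values through the 9 libraries with TGF-β1 alone or with supernatant, and it also passed the test with no filter. On the scale of log2(FPKM + 1) the difference was 1.00, since a pseudocount shrinks the change of a gene at this level.

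Nqo1 (ENSMUSG00000003849, chr8:107388225-107403206, minus strand) had FPKM of 85.3, 84.1 and 84.5 in control and of 41.2, 43.3 and 43.0 with TGF-β1. The TGF-β1 mean was 50.2% of the control mean, and the log2 fold change was -0.94 (SE 0.0379, adjusted p = 2.21e-08). Control libraries of Nqo1 had a coefficient of variation of 0.707%, the smallest of the 10 genes in that group.

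Hmox1 (ENSMUSG00000005413, chr8:75093621-75100589, plus strand) had FPKM of 141, 143 and 136 in control and of 98.8, 94.9 and 100.2 with TGF-β1, again without overlap. Its log2 fold change was -0.46 (SE 0.0392, adjusted p = 5.99e-06). Both of these NRF2 targets fell, but Txnrd1 and Gclm, which belong to the same class, did not pass the test.

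Txnrd1 (ENSMUSG00000020250, chr10:82833951-82897712, plus strand) had FPKM of 70.5, 66.6 and 67.4 in control and of 62.5, 63.6 and 63.1 with TGF-β1. Every TGF-β1 library was below every control library, yet the log2 fold change of -0.055 (95% interval -0.13 to 0.02) did not pass (adjusted p = 0.222). With limma on log2(FPKM + 1) Txnrd1 passed with a difference of -0.11.

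Gclm (ENSMUSG00000028124, chr3:122245557-122270732, plus strand) had FPKM of 14.5, 7.80 and 16.3 in control and of 9.48, 9.41 and 7.64 with TGF-β1. One control library lay among the TGF-β1 libraries, and the interval of the log2 fold change of -0.48 reached from -1.13 to 0.17 (adjusted p = 0.249). It was -0.74 without control replicate 2 and -0.27 without control replicate 3, and did not pass in either case. Gclm overlaps Gm17494, a gene on the opposite strand at chr3:122255958-122293720, with which it shares 296 exon bases in the GENCODE annotation. Gm17494 had 3833 to 19109 counts per library and Gclm 3449 to 9173. How reads were assigned by strand is not given in the sources used here, so all values of Gclm are uncertain.

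Among the superoxide dismutases, the cytosolic Sod1 (ENSMUSG00000022982, chr16:90220754-90226329, plus strand) fell. Its FPKM was 62.0, 66.2 and 62.1 in control and 50.2, 51.1 and 55.4 with TGF-β1, without overlap, and the log2 fold change was -0.22 (SE 0.0477, adjusted p = 0.00411). Sod1 overlaps Scaf4 on the opposite strand, which had 2456 to 3762 counts per library, whereas Sod1 had at least 17592.

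The mitochondrial Sod2 (ENSMUSG00000006818, chr17:13006846-13037398, plus strand) had FPKM of 7.43, 5.96 and 5.80 in control and of 4.57, 4.39 and 5.60 with TGF-β1. Its log2 fold change of -0.34 (95% interval -0.63 to -0.06) did not pass the adjusted test (adjusted p = 0.0651). DESeq2 and limma on FPKM did call it lower, as did edgeR without TGF-β1 replicate 3, where the log2 fold change was -0.47, or without TGF-β1/M-MDSC replicate 3, where it was -0.34.

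The extracellular Sod3 (ENSMUSG00000072941, chr5:52363791-52371418, plus strand) had FPKM of 39.5, 42.0 and 43.4 in control and of 37.3, 34.1 and 35.9 with TGF-β1. The groups did not overlap, but the log2 fold change of -0.16 (SE 0.067) did not pass (adjusted p = 0.093). Without control replicate 1 it was -0.21 and passed, as it did with limma on log2(FPKM + 1).

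The enzymes that remove hydrogen peroxide did not move together. Cat (ENSMUSG00000027187, chr2:103453849-103485160, minus strand) had FPKM of 35.1, 35.1 and 34.1 in control and of 39.5, 41.7 and 39.8 with TGF-β1, a rise of 0.27 on the log2 scale (SE 0.0502, adjusted p = 0.00164). Gpx1 (ENSMUSG00000063856, chr9:108338903-108340343, plus strand) had FPKM of 165, 175 and 214 in control and of 144, 149 and 155 with TGF-β1. The control libraries of Gpx1 were spread over a coefficient of variation of 13.9%, and the log2 fold change of -0.25 (95% interval -0.55 to 0.05) did not pass (adjusted p = 0.196). Without control replicate 3 it was -0.13 (adjusted p = 0.539). It passed, at the same -0.25, without TGF-β1/M-MDSC replicate 1, which is in neither group of this comparison.

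**Figure D1:**
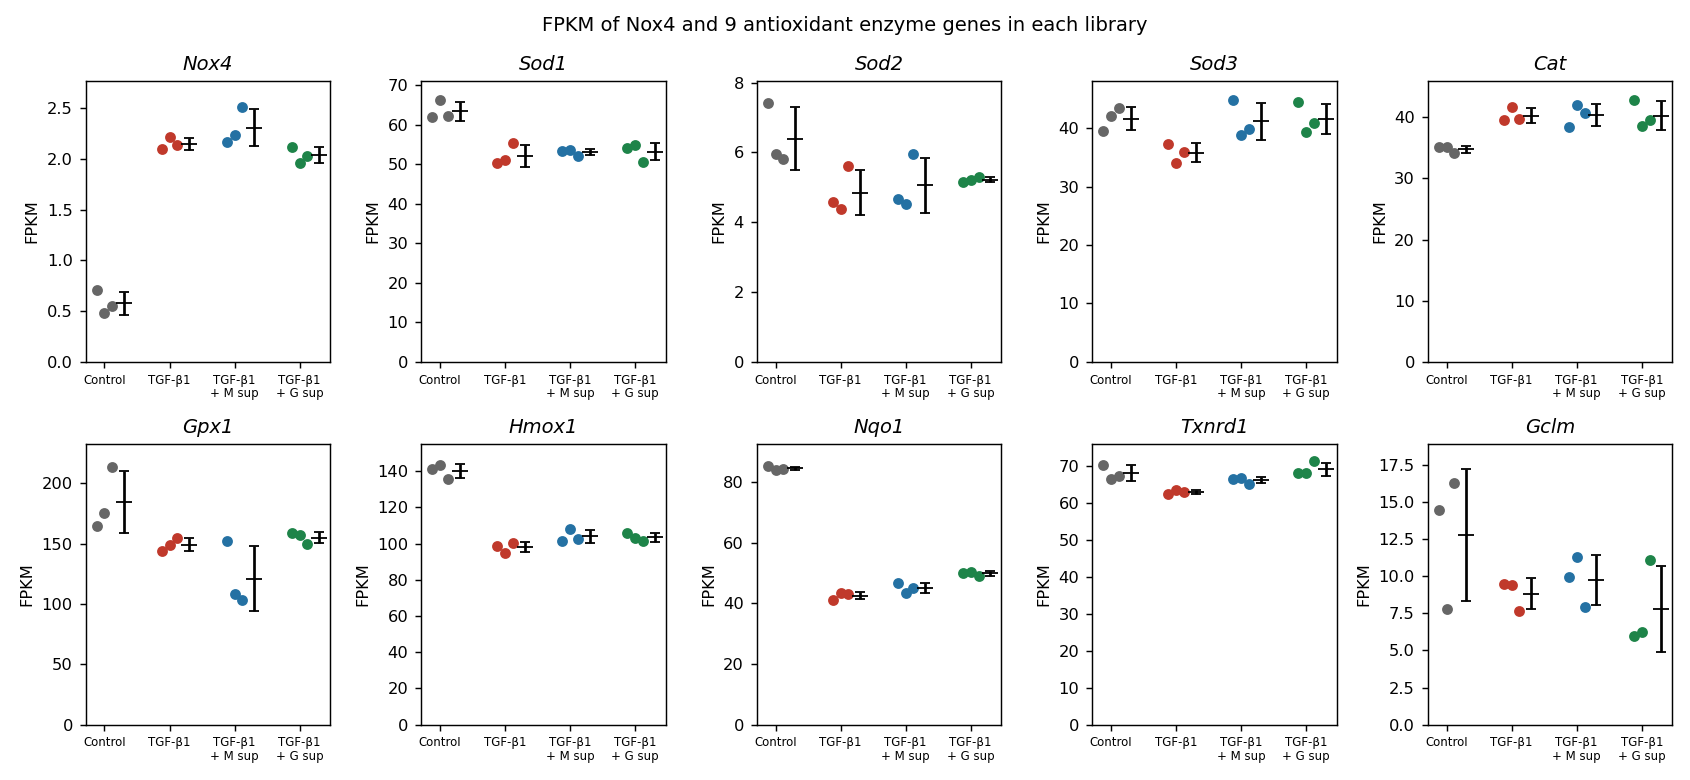
FPKM (vertical axis, linear, from 0) of each of the 10 genes in the 12 libraries, with 3 points per group in the order of the replicate numbers and the mean ± SD as a bar beside them. M sup and G sup are supernatants of M-MDSCs and G-MDSCs. Nox4 lies at 0.479 to 0.705 in control and at 1.96 to 2.51 in the other libraries, and Nqo1 lies at 84.1 to 85.3 in control and at 41.2 to 50.5 elsewhere.

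By FPKM, which allows a comparison between genes, Gpx1 was the most abundant of the 10 in control cells at 185 ± 25.7 (mean ± SD, n = 3), followed by Hmox1 at 140 ± 3.86, Nqo1 at 84.6 ± 0.598, Txnrd1 at 68.2 ± 2.08 and Sod1 at 63.4 ± 2.38. Sod3 at 41.6 ± 1.98, Cat at 34.8 ± 0.568, Gclm at 12.8 ± 4.46, Sod2 at 6.40 ± 0.899 and Nox4 at 0.579 ± 0.115 came next. No control library of any of these genes fell within the range of the gene next to it in this order. After TGF-β1 the order changed in the middle, where Txnrd1 (63.1 ± 0.555) and Sod1 (52.2 ± 2.78) stood above Nqo1 (42.5 ± 1.13), whose range of 41.2 to 43.3 overlapped that of Cat (39.5 to 41.7), and Cat stood above Sod3 (34.1 to 37.3). Nox4 remained the least abundant transcript at 2.15 ± 0.0618 FPKM.

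The next comparisons ask whether the supernatants shifted these genes in cells that received TGF-β1. With G-MDSC supernatant 1 of the 10 genes, Nqo1, was called, and it was higher. Of all tested genes, 5.56% were called in that comparison, 3.1% higher and 2.46% lower (372 and 296 genes, but 458 and 216 with limma on log2(FPKM + 1)). With M-MDSC supernatant none of the 10 was called in edgeR, where 4.78% of all tested genes were called. DESeq2 also called 0 of the 10, and 830 of all genes. In edgeR, 2 of the 10 and 2010 of the 12016 tested genes had an unadjusted p under 0.05. The median log2 fold change of the 10 genes was 0.06 for M-MDSC and 0.04 for the G-MDSC supernatant, beside -0.01 for all tested genes in each. Both comparisons use the same 3 TGF-β1 libraries. Sod3, Hmox1, Nqo1 and Txnrd1 had higher FPKM in every library with either supernatant than in any library with TGF-β1 alone, which makes 4 of the 10 genes without overlap in each comparison, where 24% of all tested genes had none for M-MDSC supernatant and 22.7% for the G-MDSC one.

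Nqo1 had FPKM of 50.0, 50.5 and 49.1 with TGF-β1 and G-MDSC supernatant, above all 3 libraries with TGF-β1 alone and below all 3 control libraries. Its log2 fold change against TGF-β1 was 0.21 (SE 0.0377, adjusted p = 0.0084), and the difference of the means covered 17.6% of the distance from the TGF-β1 mean back to the control mean. With M-MDSC supernatant Nqo1 had FPKM of 46.7, 43.5 and 45.1, with a log2 fold change of 0.065 (95% interval -0.02 to 0.15, adjusted p = 0.437). Tested directly, Nqo1 differed between the 2 supernatants by -0.14 (M-MDSC minus G-MDSC, log2, 95% interval -0.22 to -0.06), with an unadjusted p of 0.00362 and an edgeR adjusted p of 0.348.

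Nox4 showed no called change with either supernatant. Its FPKM was 2.17, 2.24 and 2.51 with M-MDSC supernatant and 2.12, 1.96 and 2.03 with G-MDSC supernatant, and both ranges overlapped that of TGF-β1 alone. The log2 fold change against TGF-β1 was 0.08 (95% interval -0.19 to 0.34) for the M-MDSC and -0.11 (95% interval -0.37 to 0.16) for the G-MDSC supernatant. Without TGF-β1/M-MDSC replicate 3 the first was 0.014, and without replicate 1 of that group 0.12. The intervals lie far from the size of the TGF-β1 rise of 1.95.

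Sod3 lay higher in each supernatant group than with TGF-β1 alone in every library, without a call. Its FPKM was 44.8, 38.9 and 39.9 with M-MDSC supernatant and 44.4, 39.3 and 40.8 with G-MDSC supernatant, compared with 34.1 to 37.3 with TGF-β1. The log2 fold changes of 0.18 (SE 0.067, adjusted p = 0.194) and 0.19 (SE 0.067, adjusted p = 0.162) did not pass, and the first was 0.115 without TGF-β1/M-MDSC replicate 1. The group means of 41.2 ± 3.16 and 41.5 ± 2.59 FPKM (SD, n = 3) were close to the control mean of 41.6 ± 1.98.

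Txnrd1 had a similar order, with FPKM of 66.6, 66.8 and 65.3 with M-MDSC supernatant and of 68.2, 68.1 and 71.4 with G-MDSC supernatant. Its log2 fold change of 0.11 (SE 0.032) with G-MDSC supernatant had an adjusted p of 0.085. It passed with DESeq2 at 0.12, with limma on log2(FPKM + 1) at 0.13, and without control replicate 1 at 0.12 or control replicate 2 at 0.12, although control libraries are in neither group of this comparison.

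Gpx1 was the gene with the least even libraries under M-MDSC supernatant, where its FPKM was 152, 108 and 103. The first of these libraries lay among the TGF-β1 libraries and the other two lay below all of them. The log2 fold change was -0.32 (95% interval -0.63 to -0.02, adjusted p = 0.264), and it became -0.52 and passed when TGF-β1/M-MDSC replicate 1 was left out. The liver markers were near 0 in TGF-β1/M-MDSC replicates 1 and 2 and high in replicate 3, and their part in the Gpx1 values was not tested. With G-MDSC supernatant Gpx1 had FPKM of 159, 157 and 150 and a log2 fold change of 0.03 (95% interval -0.27 to 0.33).

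The remaining genes stayed within small intervals of the TGF-β1 level or were too variable to place. Hmox1 had FPKM of 101, 108 and 102 with M-MDSC supernatant and of 106, 103 and 101 with G-MDSC supernatant, at log2 fold changes of 0.06 (95% interval -0.02 to 0.15) and 0.05 (95% interval -0.03 to 0.14). Sod1 had FPKM of 50.7 to 55.0 and Cat of 38.5 to 42.9 over the 6 supernatant libraries. For both genes the interval of either log2 fold change lay between -0.14 and 0.11. Sod2 had FPKM of 4.68, 4.53 and 5.97 with M-MDSC supernatant and of 5.15, 5.21 and 5.29 with G-MDSC supernatant, with intervals from -0.25 to 0.32 and from -0.21 to 0.36. Gclm had FPKM of 9.98, 11.3 and 7.96 and of 5.99, 6.23 and 11.1, and its intervals of -0.53 to 0.77 and -0.86 to 0.44 were the widest of the 10 genes. With G-MDSC supernatant its log2 fold change of -0.21 was -0.56 without TGF-β1/G-MDSC replicate 3, -0.05 without replicate 1 and -0.07 without replicate 2 of that group.

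**Figure D2:**
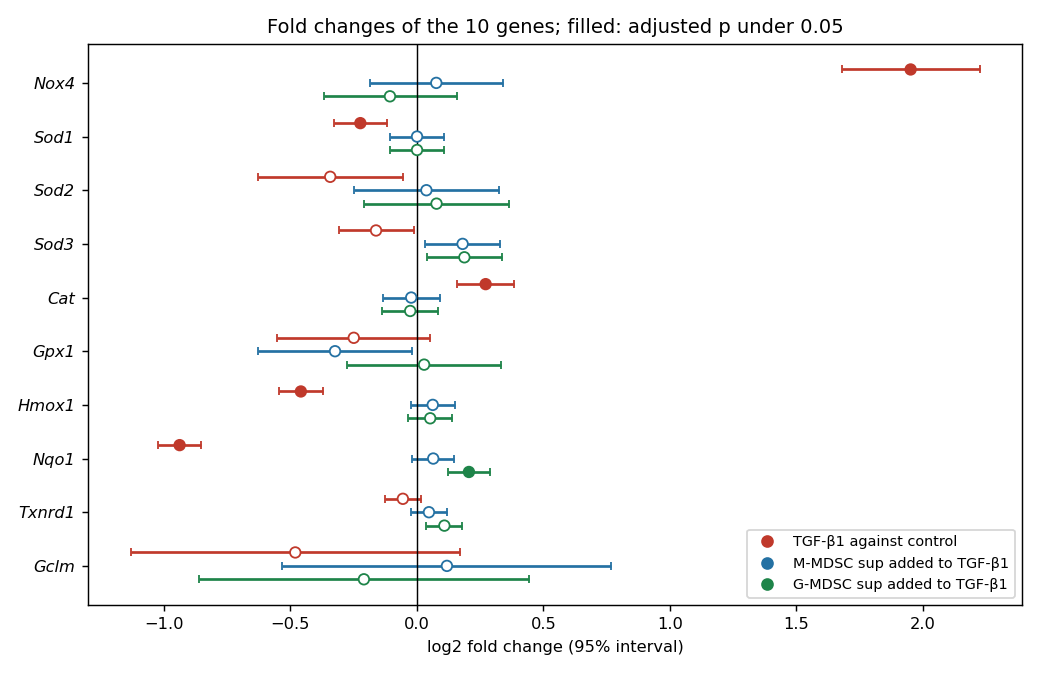
Log2 fold change (horizontal axis) with its 95% interval for each of the 10 genes in 3 comparisons, drawn in red for TGF-β1 against control, in blue for M-MDSC supernatant and TGF-β1 against TGF-β1, and in green for G-MDSC supernatant and TGF-β1 against TGF-β1. Filled points passed an adjusted p of 0.05. Nox4 stands apart at 1.95, and Nqo1 at 0.21 is the single filled point among the supernatant values.

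Between the supernatants, none of the 10 genes was called in edgeR or with DESeq2. In edgeR, 2 of them, Nqo1 and Gpx1, had an unadjusted p under 0.05, as did 761 of the 12016 tested genes. Only 0.125% of all tested genes were called in this comparison. The Gpx1 log2 difference (M-MDSC minus G-MDSC) was -0.35 (95% interval -0.66 to -0.05, adjusted p = 0.732), and -0.55 without TGF-β1/M-MDSC replicate 1.

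Set against the untreated control, 6 of the 10 genes were called with TGF-β1 and M-MDSC supernatant and 5 with TGF-β1 and G-MDSC supernatant, where 35.2% and 34.8% of all tested genes were called. All these comparisons share the control libraries, so their values are given side by side. Nox4 had log2 fold changes of 1.95 for TGF-β1, 2.03 for TGF-β1/M-MDSC and 1.85 for TGF-β1/G-MDSC. Nqo1 had -0.94, -0.87 and -0.73, Hmox1 had -0.46, -0.395 and -0.405, and Sod1 had -0.22 in each. Cat had 0.27, 0.25 and 0.25. The additional gene called with TGF-β1/M-MDSC was Gpx1, at -0.57 (SE 0.137, adjusted p = 0.00771), compared with -0.25 and -0.22 in the other two, which did not pass. Without TGF-β1/M-MDSC replicate 3, Sod2 was also called in the TGF-β1/M-MDSC comparison, at -0.44 in place of -0.30. Gclm was called with TGF-β1/G-MDSC, at -0.94 without control replicate 2 and at -1.04 without TGF-β1/G-MDSC replicate 3, in place of -0.69.

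Among the genes whose log2 CPM (counts scaled by library depth) were most like those of Nox4 over the 12 libraries were Odaph (Pearson r = 0.994), Tspan18 (0.993), Map3k20 (0.992) and Itgb1 (0.991). The libraries form 2 clusters, the control libraries and all others, so these coefficients mostly describe that gap and no p is given. Odaph went from 0.104 ± 0.0593 FPKM in control to 1.96 ± 0.125 with TGF-β1 (SD, n = 3), and Map3k20, a stress-activated kinase, from 6.16 ± 0.3 to 15.9 ± 0.289. Itgb1, the integrin β1 chain and one of the MSC markers, went from 254 ± 8.61 to 385 ± 3.98.

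The other genes of the redox system were taken from 8 lists with 114 genes besides the 10, of which 113 were in the table and 92 entries were tested. After TGF-β1, 50 of the 92 were called, 12 higher and 38 lower, with a median log2 fold change of -0.16, beside 34% of all tested genes called (16.1% higher, 17.9% lower) and a median of 0.00. The glutathione list had 14 called of 19 tested (3 higher, 11 lower), and the list of NRF2 regulators and other NRF2 targets had 15 of 18 (5 higher, 10 lower). The heme and iron list had 6 of 9, all 6 lower, and the NADPH supply list 6 of 12 (1 higher, 5 lower). Of the thioredoxin and glutaredoxin genes 4 of 16 were called, of the peroxide-removing enzymes 3 of 10, of the genes of copper delivery to superoxide dismutases 1 of 5 and of the NADPH oxidase subunits 1 of 3. The lists were not tested against each other.

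**Figure D3:**
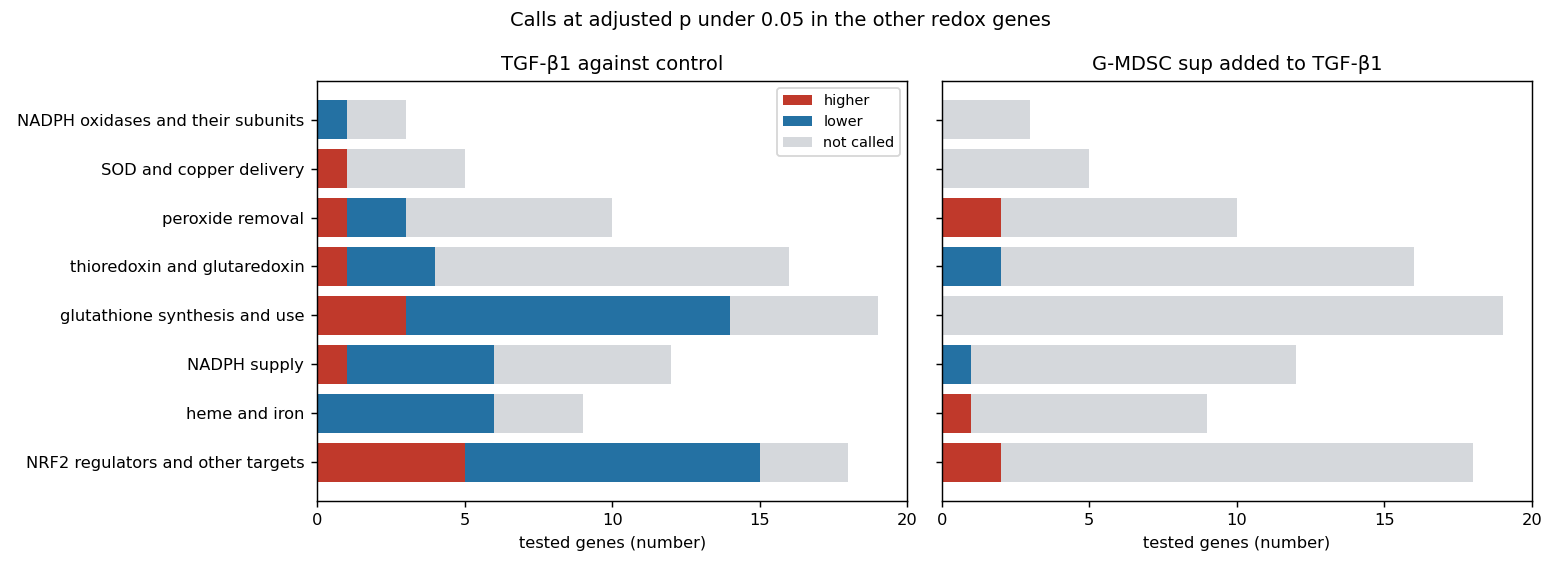
Number of tested genes (horizontal axis) in each of the 8 lists of other redox genes that were called higher (red), called lower (blue) or not called (grey), for TGF-β1 against control at left and G-MDSC supernatant added to TGF-β1 at right. In the left panel the glutathione list holds 11 lower genes and the NRF2 list 10, and in the right panel no list holds more than 2 called genes.

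Of the NADPH oxidase family, Nox4 was the catalytic subunit with most counts in these libraries. Nox3 and the activator subunit Noxa1 were at 0 in all 12, Nox1 had at most 14 counts, Duox1 at most 34 and Duox2 at most 12. Cybb, the phagocyte oxidase, had 0 counts in the 6 libraries without supernatant and 6 to 33 in those with supernatant. Its partners Rac2 and Ncf4 were likewise at 0 without supernatant and reached 81 and 23 counts with it, and both were at 0 in at least 1 supernatant library. Myeloid markers, 12 in all, summed to 4.26 to 4.51 FPKM in control, 1.18 to 1.35 with TGF-β1, 2.03 to 4.49 with TGF-β1/M-MDSC and 3.40 to 7.54 with TGF-β1/G-MDSC, and 2 of them, Mpo and Elane, were at 0 throughout. Within the sum, Ly6g had means of 1.83 FPKM in control and 0.0681 with TGF-β1, and Ly6c2 of 1.71 and 0.045. Csf1r went the other way, with means of 0.631 FPKM in control and 1.03 with TGF-β1. Its means were 1.08 with TGF-β1/M-MDSC and 1.19 with TGF-β1/G-MDSC. Lyz2 had means of 0.115 FPKM in control and 0.0573 with TGF-β1, against 1.54 with TGF-β1/M-MDSC and 1.87 with TGF-β1/G-MDSC. S100a9 had no count in the 6 libraries without supernatant. It had 43, 12 and 23 counts in the TGF-β1/M-MDSC libraries and 0, 0 and 160 in the TGF-β1/G-MDSC libraries. Its means there were 0.576 and 1.13 FPKM, and the second came from replicate 3 alone. Ncf1 had 7 to 67 counts and Noxo1, an organizer subunit, 29 to 119, and neither entered the test.

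The Nox4 partner Cyba did not follow Nox4. It had FPKM of 17.2, 20.4 and 17.4 in control and of 14.1, 15.4 and 16.2 with TGF-β1, with a log2 fold change of -0.21 (SE 0.096, adjusted p = 0.123). Poldip2, a Nox4-associated protein, had a log2 fold change of -0.01 (SE 0.043), and Rac1, a GTPase used by other family members, fell by 0.12 on the log2 scale (adjusted p = 0.0332).

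Of the called genes in these lists, the 6 with the largest falls were Gstt1, Aldh3a1, Ephx1, Mgst3, Gsta4 and Gstm1. Gstt1, a glutathione transferase, had FPKM of 11.9, 12.9 and 11.6 in control and of 1.89, 1.35 and 1.61 with TGF-β1 (log2 fold change -2.85, SE 0.237, adjusted p = 4.9e-06). Aldh3a1, an aldehyde dehydrogenase, had 30.3, 31.7 and 28.6 in control and 4.12, 3.78 and 4.31 with TGF-β1 (log2 fold change -2.83, adjusted p = 4.28e-09). The epoxide hydrolase Ephx1 and the glutathione transferases Mgst3, Gsta4 and Gstm1 had log2 fold changes of -2.06, -2.05, -1.92 and -1.78. In each of these 6 genes the TGF-β1 libraries lay below all control libraries. The 6 were chosen for their falls in this same comparison, so the lack of overlap adds no support.

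The 6 with the largest rises were Mthfd2, Slc7a11, Sesn2, Chac1, Mafk and Mafg. Mthfd2, a mitochondrial folate enzyme, went from 43.6, 48.1 and 46.9 FPKM to 88.8, 86.0 and 93.3 (log2 fold change 1.01, SE 0.0562, adjusted p = 2.26e-07). Slc7a11, the cystine importer that feeds glutathione synthesis, had a log2 fold change of 1.01, Sesn2, a stress-induced sestrin, of 0.985 and Chac1, which degrades glutathione, of 0.665. The small MAF genes Mafk and Mafg, whose proteins pair with NRF2, rose by 0.60 and 0.59 on the log2 scale.

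The genes of NRF2 (Nfe2l2) and of its inhibitor KEAP1 both fell. Nfe2l2, which was picked for mention after its values were seen, had FPKM of 35.1, 34.1 and 34.8 in control and of 23.5, 24.6 and 23.3 with TGF-β1 (log2 fold change -0.485, SE 0.0377, adjusted p = 2.89e-06), and Keap1, picked in the same way, had -0.31 (SE 0.0685, adjusted p = 0.00457). Neither passed with a supernatant, with adjusted p of 0.995 and 0.796 for Nfe2l2 and of 0.896 and 0.824 for Keap1, M-MDSC supernatant first.

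With M-MDSC supernatant 7 of the 92 other redox genes were called (5 higher, 2 lower), where 4.78% of all tested genes were called. For the G-MDSC supernatant it was 8 of 92 (5 higher, 3 lower), where 5.56% of all tested genes were called. DESeq2 called 12 and 13 of the 92, M-MDSC supernatant first. Over all genes it called 830 and 990, beside 574 and 668 in edgeR. Of the 92, none was called between the supernatants in edgeR. There 9 had an unadjusted p under 0.05, as did 761 of the 12016 tested genes. Both comparisons against the shared TGF-β1 libraries called Gpx3, Aldh3a1, Prdx5, Tfrc and Ugdh higher and Sesn3 and Msrb3 lower, and Idh1 was called lower with G-MDSC supernatant, with adjusted p of 0.0515 with M-MDSC supernatant.

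Gpx3, the glutathione peroxidase secreted into plasma, had 4, 11 and 10 counts in control, 10, 0 and 0 with TGF-β1, 2618, 4518 and 3955 with TGF-β1/M-MDSC and 4361, 3659 and 4315 with TGF-β1/G-MDSC. It passed with adjusted p of 1.12e-06 and 1.2e-06, and no fold is given because the TGF-β1 group held 10 counts in all. Gpx3 passed the filter on low values through the 6 supernatant libraries alone, and it also passed both tests with no filter. The kidney, where Gpx3 is known to be made, was represented by marker transcripts in the same 6 libraries: Kap had 0 counts in all 6 libraries without supernatant and 537 to 4246 in those with it, and Umod had 0 and 214 to 1020. In the TGF-β1/M-MDSC libraries, in the order of the replicates given for Gpx3, Kap had 773, 537 and 4246 counts, and in the TGF-β1/G-MDSC libraries it had 2474, 3185 and 3010. The part of kidney transcripts in the Gpx3 counts was not tested.

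**Figure D4:**
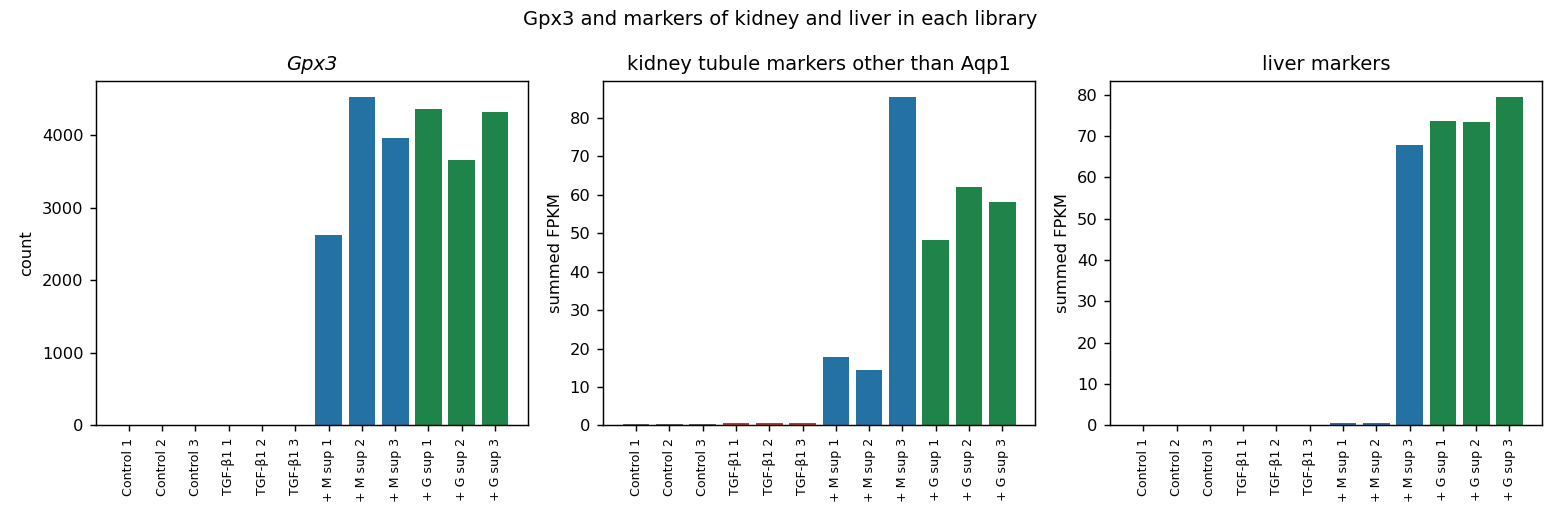
Counts of Gpx3 (left), summed FPKM of 13 kidney tubule markers other than Aqp1 (middle) and summed FPKM of 9 liver markers (right) in each of the 12 libraries, 1 bar per library on linear axes from 0. All 3 measures are near 0 in the 6 libraries without supernatant, and liver markers are near 0 also in TGF-β1/M-MDSC replicates 1 and 2.

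The other called genes moved by less than 2-fold. Prdx5, a peroxiredoxin, had FPKM of 79.1, 81.2 and 86.6 with TGF-β1, of 116, 104 and 103 with M-MDSC supernatant and of 116, 122 and 110 with G-MDSC supernatant (log2 fold changes 0.36 and 0.47, adjusted p = 0.0162 and 0.00289). Aldh3a1 had 5.02, 5.94 and 5.61 FPKM and 6.65, 6.20 and 5.64 FPKM, above the 3.78 to 4.31 of TGF-β1 and far below control, with log2 fold changes of 0.42 (adjusted p = 0.0205) and 0.57 (adjusted p = 0.00274). The transferrin receptor gene Tfrc had 0.33 and 0.31, and Ugdh, which makes UDP-glucuronate, 0.265 and 0.38.

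Sesn3, a stress-response gene, had log2 fold changes of -0.44 for the M-MDSC and -0.47 for the G-MDSC supernatant. Msrb3, a methionine sulfoxide reductase, had -0.27 and -0.30, and Idh1, a cytosolic source of NADPH, had -0.27 and -0.29. Some of these calls were lost under other settings, most with log2 fold changes of similar size. With M-MDSC supernatant, Aldh3a1 no longer passed with the replicate number as a block (0.415), with the compared groups alone (0.43), or without TGF-β1 replicate 1 (0.42), TGF-β1 replicate 2 (0.37), TGF-β1/M-MDSC replicate 2 (0.36) or TGF-β1/M-MDSC replicate 3 (0.41). Prdx5 no longer passed without TGF-β1 replicate 1 (0.335), TGF-β1 replicate 2 (0.36) or TGF-β1/M-MDSC replicate 1 (0.30), and Ugdh with the compared groups alone (0.28) or without TGF-β1/M-MDSC replicate 2 (0.235). With G-MDSC supernatant, Idh1 no longer passed with no filter (-0.29), with the compared groups alone (-0.28), or without control replicate 2 (-0.28), TGF-β1 replicate 1 (-0.30), TGF-β1 replicate 3 (-0.23), TGF-β1/G-MDSC replicate 1 (-0.27) or TGF-β1/G-MDSC replicate 2 (-0.28).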

How the data were processed

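The 12 mRNA libraries were sequenced as paired reads from a strand-specific poly(A) protocol. The authors used fastp for quality control, HISAT2 2.0.4 for alignment to GRCm38, and StringTie 1.3.4d with gffcompare for transcripts, and the submitters' processing notes also name cutadapt 1.9. The authors deposited counts per gene, made with a tool and strand setting not given in the sources used here, and FPKM, with 0.0001 standing for no count. Low counts (12 or fewer, above 0) were 4, 8 or 12 in 44.3% of cases, and an alternative divided counts by 4. Totals were 73977669 to 84565450 counts, and the chi-square per degree of freedom between libraries of a group, with every count taken as 1 read, was 61.9 to 85.3, so that the spread between libraries limits the precision.

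The 12016 genes that reached 1 FPKM in 3 or more libraries entered a quasi-likelihood fit in edgeR 4.0.16 (R 4.3.3), with TMM scaling (factors 0.978 to 1.03), all 4 groups in 1 fit, and a two-sided F test, with Benjamini-Hochberg adjustment over all tested genes and calls at an adjusted p under 0.05. Intervals are 95% intervals of this fit, and SE is the log2 fold change divided by the root of F. Overlap between groups refers to FPKM. The scripts were tested on simulated data. Tables and plots used Python 3.11.15, pandas 2.3.3 and matplotlib 3.10.9. Alternatives were limma 3.58.1 on log2 FPKM with pseudocounts of 1 and 0.1, DESeq2 1.42.0, other scaling and filters, the compared groups alone, a replicate block, a fold above 2 with unadjusted p under 0.05, and leaving out each library. Groups came from the library titles.

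The 10 genes and all lists were chosen with earlier results of these data known. Named genes are the 10, every listed NADPH oxidase gene, per comparison up to 6 called redox genes with the largest rise and fall, and the 5 genes most correlated with Nox4. Genes in the lists were matched by exact symbol. Values of some single genes under this rule are not reported here.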

Additional observations from a re-analysis of the deposited data

How the results depend on the processing

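Over 21 of the 22 alternatives, all but the rule of a fold above 2 with an unadjusted p under 0.05, 1192 of 1260 values of the 10 genes kept their direction and their side of the threshold, 20 came to pass it, none that passed was lost, and 48 turned sign, all in values that did not pass. Over the same 21 alternatives, of 1071 values of other called redox genes, 1053 were kept and 18 no longer passed. The values that turned sign were close to 0, and the cause was not tested. For Sod1 between the supernatants (M-MDSC minus G-MDSC), median-ratio scaling and DESeq2 gave 0.0, no filter gave 0.002 and the edgeR filter by expression gave 0.004. For Sod3 against control, limma with either pseudocount gave -0.016 with TGF-β1/M-MDSC and -0.005 with TGF-β1/G-MDSC. For Cat with M-MDSC supernatant against TGF-β1, limma with either pseudocount gave 0.0. For Txnrd1 with TGF-β1/M-MDSC against control, median-ratio scaling and DESeq2 gave 0.003 and both other filters gave 0.009.

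Leaving out 1 library at a time, log2 fold changes that turned sign spanned these ranges. With M-MDSC supernatant against TGF-β1 they were -0.028 to 0.061 for Sod1, -0.095 to 0.168 for Sod2, -0.051 to 0.01 for Cat and -0.002 to 0.247 for Gclm. With G-MDSC supernatant against TGF-β1 they were -0.028 to 0.062 for Sod1 and -0.074 to 0.007 for Cat. Between the supernatants they were -0.033 to 0.022 for Sod1, -0.174 to 0.033 for Sod2, -0.073 to 0.044 for Sod3, -0.029 to 0.052 for Cat and -0.02 to 0.029 for Hmox1. Against control they were -0.046 to 0.06 for Sod3 and -0.016 to 0.013 for Txnrd1 with TGF-β1/M-MDSC, and -0.024 to 0.066 for Sod3 with TGF-β1/G-MDSC.

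Of the 10 genes, limma on FPKM called 8 after TGF-β1 with either pseudocount, compared with 5. Over all genes it called 4202 with a pseudocount of 1 (1477 higher, 2725 lower) and 4178 with 0.1 (1479 higher, 2699 lower), compared with 4082. A fold above 2 with an unadjusted p under 0.05 called 1 (Nox4) in each comparison against control and 0 with G-MDSC supernatant, so that under this rule Cat, Nqo1, Hmox1 and Sod1 were not called after TGF-β1. In that last comparison limma with either pseudocount and DESeq2 called 2 of the 10 genes in place of 1. Over all genes limma called 674 and 675 there (pseudocounts of 1 and 0.1) and DESeq2 990, in place of 668. Leaving out a library gave 1 to 2 of the 10, while with M-MDSC supernatant it gave 0 to 1. Of the other redox genes, the fold rule called 14 after TGF-β1 in place of 50, 14 with TGF-β1/M-MDSC against control in place of 56, 12 with TGF-β1/G-MDSC in place of 54, and 1 with either supernatant against TGF-β1. DESeq2 called 12 with M-MDSC and 13 with G-MDSC supernatant, in place of 7 and 8, and 830 and 990 of all genes, in place of 574 and 668. Over all genes the fold rule called 810 after TGF-β1 in place of 4082, 839 and 817 with TGF-β1/M-MDSC and TGF-β1/G-MDSC against control in place of 4234 and 4187, and 262 for M-MDSC and 261 for the G-MDSC supernatant against TGF-β1, in place of 574 and 668. Fitting the compared groups alone called 351 with M-MDSC supernatant, and leaving out TGF-β1 replicate 2 called 355. Between the supernatants 15 genes were called, against 8 to 121 under the alternatives, with 121 from DESeq2.

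Libraries with the same replicate number did not deviate together, with a mean correlation of -0.0038 over 18 pairs, beside 0.0020 over 36 pairs with different numbers. With the replicate number as a block, 5, 0, 1, 0, 6 and 5 of the 10 genes were called in the 6 comparisons, as without it, and 49, 8, 10, 0, 53 and 53 of the other redox genes, with Aldh3a1 no longer passing for M-MDSC supernatant (0.415), and 8 genes in all between the supernatants.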
